A study of Mus musculus with 12 samples.

Results

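Choroid plexus epithelium genes were followed through hippocampal RNA sequencing of mice in which Hp1bp3, a linker histone-like chromatin protein, had been knocked down. The 10 genes (Ttr, Folr1, Kl, Clic6, Kcne2, Aqp1, Otx2, Enpp2, Prlr and Sostdc1) were chosen by symbol as genes known to be high in this epithelium. The choice was made with earlier results of these data known. All 10 were found among the 22236 genes of the expression table, and all 10 were among the 15853 genes that passed the filter on low counts. The whole hippocampus was taken from male C57BL/6J (B6) or DBA/2J (D2) mice aged 3 to 5 months, at least 6 weeks after bilateral injection of virus into the dorsal hippocampus. Each of the 4 groups held 3 libraries. KD mice received AAV9-shRNA-Hp1bp3, a viral vector with a short hairpin RNA against Hp1bp3, and Ctrl mice received AAV-scrmb-shRNA, with a scrambled hairpin. Every mouse was therefore injected, none of the groups was free of virus, and the dissected tissue extended beyond the injected region.

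The choroid plexus is a folded sheet of epithelium that hangs in the ventricles of the brain. It secretes cerebrospinal fluid, forms the barrier between blood and that fluid, and releases transthyretin, the carrier of thyroxine encoded by Ttr, in very large amounts. In the lateral ventricle it lies against the hippocampus. Several of the genes are known from other cells as well, such as Kl in neurons and Enpp2 in oligodendrocytes. In whole tissue, fewer cells of a type and less RNA per cell cannot be told apart.

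The promoters of 4 genes are shown because they belong to the gene of the set that followed Ttr most steeply (Kcne2), the gene that followed it least steeply (Kl), the transcription factor of the set (Otx2), and the other choroid plexus gene with the largest strain difference that passed the test (Mfrp). Each is the 250 bases before an annotated start, from RefSeq on GRCm38.p6. Capitals mark GGATTA, which is TAATCC on the other strand, the core letters recognised by OTX-type homeodomain proteins. Of the 4 Otx2 starts only start 3 is shown, the one that holds these letters, and starts 1, 2 and 4 do not.

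Kcne2, chr16:92292139-92292388, plus strand: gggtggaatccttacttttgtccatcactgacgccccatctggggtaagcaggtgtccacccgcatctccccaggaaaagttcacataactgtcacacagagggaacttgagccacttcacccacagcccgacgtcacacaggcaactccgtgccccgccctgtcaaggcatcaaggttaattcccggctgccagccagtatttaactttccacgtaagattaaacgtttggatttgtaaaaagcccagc
Kl, chr5:150952357-150952606, plus strand: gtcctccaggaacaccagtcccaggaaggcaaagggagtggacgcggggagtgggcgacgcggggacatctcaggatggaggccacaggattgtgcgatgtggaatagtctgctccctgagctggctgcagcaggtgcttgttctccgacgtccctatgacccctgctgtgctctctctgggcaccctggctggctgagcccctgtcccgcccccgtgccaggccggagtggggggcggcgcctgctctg
Otx2 (start 3 of 4), chr14:48665110-48665359, minus strand: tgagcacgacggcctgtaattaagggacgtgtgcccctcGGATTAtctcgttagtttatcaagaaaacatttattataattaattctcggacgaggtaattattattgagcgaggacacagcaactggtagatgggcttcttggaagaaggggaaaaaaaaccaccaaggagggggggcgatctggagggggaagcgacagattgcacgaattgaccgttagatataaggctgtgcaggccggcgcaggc
Mfrp, chr9:44101520-44101769, plus strand: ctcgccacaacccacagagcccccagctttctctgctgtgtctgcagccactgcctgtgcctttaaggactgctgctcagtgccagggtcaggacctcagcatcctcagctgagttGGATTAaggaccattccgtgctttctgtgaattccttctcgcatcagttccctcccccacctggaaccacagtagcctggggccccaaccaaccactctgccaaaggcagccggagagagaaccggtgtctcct

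Promoters were at hand for 5 of the 10 genes (Kl, Kcne2, Aqp1, Otx2 and Prlr), in 11 windows that ran from 250 bases before to 50 bases after a start. TAATCC, read on both strands, was found in 1 of these 11 windows (9.09%), the Otx2 window whose sequence is shown. Promoters were at hand for 30 of 38 other choroid plexus genes, and these happened to make up 38 windows. TAATCC was found in 4 of these windows (10.5%), those of Abca4, Ace, Igf2 and Mfrp, and in 7.06% of 32851 promoter windows of the same length. The shares are a description of these letters in these windows.

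The genes do not lie together in the genome. By GENCODE M21 on GRCm38, Ttr lies on chromosome 18, Folr1 on chromosome 7, Kl on chromosome 5, Aqp1 on chromosome 6, Otx2 on chromosome 14, and Sostdc1 on chromosome 12. Enpp2 and Prlr share chromosome 15. Kcne2 (chr16:92292389-92298129) and Clic6 (chr16:92485736-92541243) lie 188 kb apart, with 8 annotated genes lying wholly between them.

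Hp1bp3 itself was measured first, as a check of the labels. Levels are given as CPM, counts scaled to a library total of 1000000 with TMM factors. In B6 mice Hp1bp3 was at 308, 294 and 310.1 CPM under Ctrl and 185, 182 and 259 CPM under KD, and in D2 mice it was at 226, 215 and 234 CPM under Ctrl and 177, 163 and 229.6 CPM under KD. KD was lower than Ctrl by 65.3 CPM on average within strains (exact permutation test, two-sided, p = 0.015, 400 assignments). The KD values lay below all Ctrl values in B6, whereas the library labelled D2 KD 3 lay inside the D2 Ctrl range, and none of the counts of the 10 genes called for KD changed when it was left out. The libraries held 18.2 to 39.4 M expected counts (M for 1000000), so that the lowest level of any of the 10 genes, Otx2 in D2 KD 2, still rested on 5 counts.

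Ttr separated the 12 libraries more than the study's groups did. In B6 mice its level was 48.2, 2404 and 104 CPM in Ctrl 1, 2 and 3, and 104, 3648 and 4490.4 CPM in KD 1, 2 and 3. In D2 mice it was 139, 3479.8 and 4568 CPM under Ctrl and 4401, 26.9 and 4548 CPM under KD, in the same order of libraries, which is kept below for every gene. Each group thus held both low and high libraries, and the groups overlapped. The low libraries were B6 Ctrl 1, B6 Ctrl 3, B6 KD 1, D2 Ctrl 1 and D2 KD 2, all at or below 139 CPM, and the other 7 were at or above 2404 CPM. The space between them, 4.1 on the log2 scale, made up 55.7% of the whole range. Means with their SD (n = 3) were 852 ± 1345 CPM for Ctrl and 2748 ± 2328 CPM for KD in B6, and 2729 ± 2308 CPM for Ctrl and 2992 ± 2569 CPM for KD in D2. Ttr took from 0.00272% to 0.463% of all counts, and by count it ranked from 1 among all genes in 3 libraries to 7022 in D2 KD 2. Depth moved with this division. The 5 low libraries held 33.0 to 37.6 M counts, and 6 of the 7 high libraries held fewer, 18.2 to 31.8 M, whereas the high library B6 KD 3 was the deepest of all at 39.4 M. The part of depth in the division was not tested.

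The other secreted products showed the same division. Enpp2, which encodes autotaxin, the enzyme that makes lysophosphatidic acid, was in B6 mice at 173, 1427 and 275 CPM under Ctrl and 273, 2345 and 2525 CPM under KD. In D2 mice it was at 356, 2289.7 and 2598 CPM under Ctrl and 2648, 169.8 and 3172 CPM under KD. Its 5 lowest libraries were those low in Ttr, and its highest library exceeded its lowest 18.7-fold. Sostdc1, a secreted antagonist of BMP and Wnt signalling, was in B6 mice at 2.21, 16.5 and 2.49 CPM under Ctrl and 4.03, 31.5 and 29.4 CPM under KD. In D2 mice Sostdc1 was at 3.41, 36.3 and 48.0 CPM under Ctrl and 46.7, 3.58 and 42.9 CPM under KD. The same 5 libraries were lowest, the range was 21.7-fold, and among the 7 high libraries each of the 4 from D2 held more Sostdc1 than any of the 3 from B6.

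The receptors of the cell surface followed. Folr1, a folate receptor that moves folate into cerebrospinal fluid, was in B6 mice at 0.674, 18.2 and 1.33 CPM under Ctrl and 1.73, 32.2 and 38.2 CPM under KD. In D2 mice it was at 1.39, 20.2 and 27.7 CPM under Ctrl and 24.8, 0.316 and 27.1 CPM under KD. Folr1 spanned 121-fold, and its highest libraries were from B6 KD. Kl, which encodes klotho, the co-receptor for FGF23, was in B6 mice at 25.3, 171 and 37.3 CPM under Ctrl and 28.8, 266 and 269 CPM under KD. In D2 mice Kl was at 39.1, 250.4 and 242 CPM under Ctrl and 250.4, 28.8 and 312 CPM under KD. Kl spanned 12.3-fold, the narrowest range of the 10 genes, with low libraries of 25.3 to 39.1 CPM. Prlr, the prolactin receptor, was in B6 mice at 4.10, 42.4 and 6.51 CPM under Ctrl and 8.82, 75.5 and 86.1 CPM under KD. In D2 mice Prlr was at 6.07, 88.0 and 87.9 CPM under Ctrl and 92.8, 12.3 and 86.5 CPM under KD. Prlr spanned 22.6-fold, and it was the 1 gene of the 10 for which the highest of the 5 low libraries was D2 KD 2, the library with the least Ttr. Its expected counts were fractional in all 12 libraries, those of the other 9 genes whole.

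Channels showed some of the widest ranges. Clic6, a member of the intracellular chloride channel family, was in B6 mice at 2.83, 82.5 and 6.59 CPM under Ctrl and 5.08, 131 and 176 CPM under KD. In D2 mice Clic6 was at 7.80, 123 and 136 CPM under Ctrl and 139.8, 1.79 and 149.8 CPM under KD. The range of Clic6 was 98.5-fold, with the 5 low libraries below 8 CPM. Kcne2, a subunit that modulates potassium channels, was in B6 mice at 0.378, 19.5 and 0.954 CPM under Ctrl and 1.76, 35.95 and 31.5 CPM under KD. In D2 mice Kcne2 was at 1.21, 30.8 and 39.9 CPM under Ctrl and 34.1, 0.368 and 36.9 CPM under KD. Kcne2 spanned 108-fold, and its lowest libraries, B6 Ctrl 1 and D2 KD 2, were nearly equal. Aqp1, the water channel of the apical membrane, was in B6 mice at 0.944, 20.6 and 1.27 CPM under Ctrl and 4.09, 32.3 and 36.9 CPM under KD. In D2 mice Aqp1 was at 2.63, 27.9 and 36.4 CPM under Ctrl and 32.3, 1.05 and 35.2 CPM under KD. The range of Aqp1 was 39.1-fold.

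Otx2, the homeodomain transcription factor required for the choroid plexus, was in B6 mice at 0.512, 13.7 and 1.42 CPM under Ctrl and 1.02, 23.5 and 29.1 CPM under KD. In D2 mice Otx2 was at 1.73, 13.6 and 15.9 CPM under Ctrl and 18.3, 0.132 and 16.8 CPM under KD. It had the widest range of the 10 genes, at 222-fold, and its highest libraries were both from B6 KD.

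Divided by the length of the annotated exons, the median level of Ttr was 2481 CPM per kb. Enpp2 came next at 322 CPM per kb, followed by Clic6 at 26.3, Kl at 22.2, Kcne2 at 14.3, Sostdc1 at 12.9, Aqp1 at 9.23, Folr1 at 8.35, Prlr at 3.84 and Otx2 at 3.24 CPM per kb. The ranges over the 12 libraries overlapped for every pair of neighbours, but the genes rose and fell together, so neighbours were also compared within each library. Enpp2 exceeded Clic6 in 12 of 12 libraries, by 9.7-fold to 64.3-fold per kb. Kl exceeded Kcne2 and Sostdc1 exceeded Aqp1 in 12 of 12 libraries as well, by at least 1.15-fold and 1.18-fold. The other 6 pairs of neighbours changed order between libraries.

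**Figure D1:**
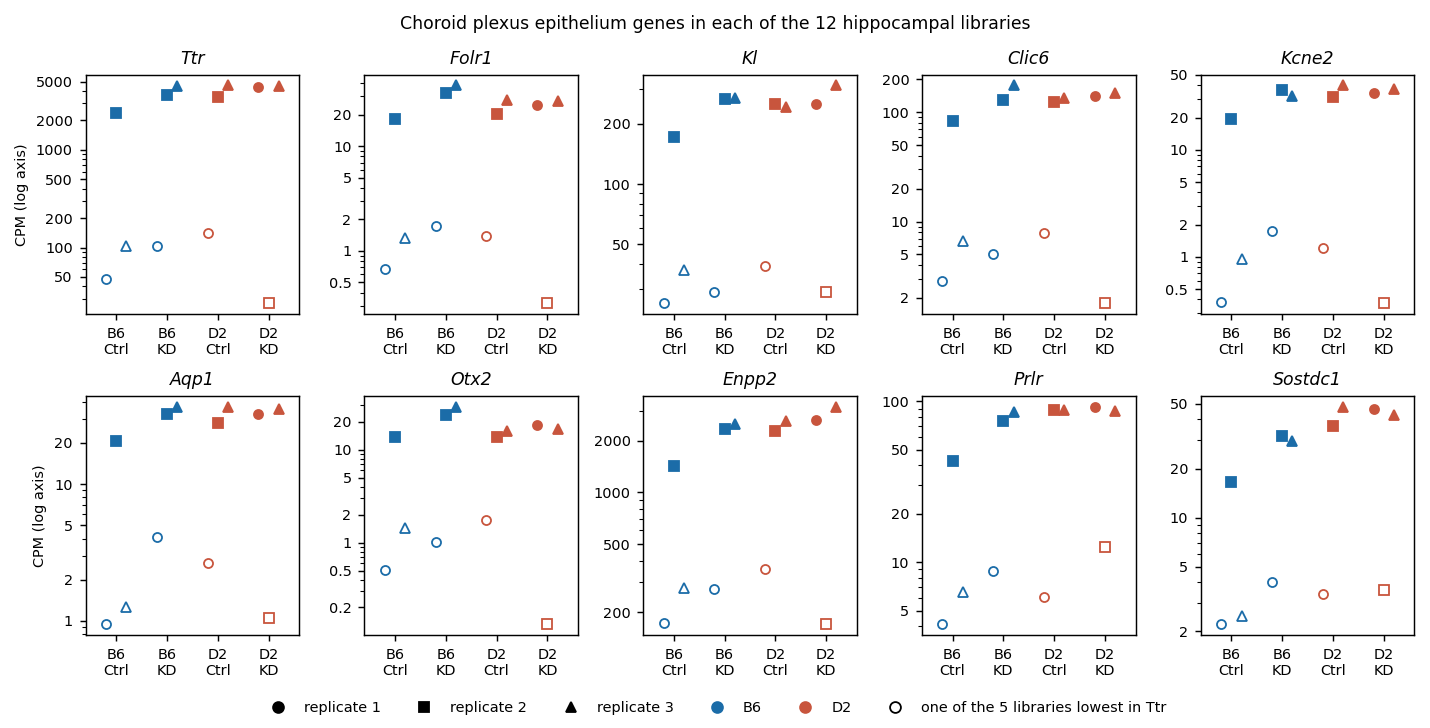
CPM of each of the 10 genes (log axis) in the 12 libraries, by group, with 1 point per library. Colour gives the strain, the shape gives the replicate, and open points are the 5 libraries lowest in Ttr. In every panel the 5 open points lie below the 7 filled points, and every group holds at least 1 of each.

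For all 9 genes beside Ttr, the 5 libraries lowest in Ttr were also the 5 lowest, without overlap. Over all 15852 other tested genes this held for 330, or 2.08%. On the log2(CPM + 1) scale, the space between both sets of libraries ran from 1.70 for Prlr, between 12.3 and 42.4 CPM, to 3.24 for Clic6, between 7.80 and 82.5 CPM. Together the 10 genes took between 0.0248% and 0.838% of a library's counts.

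The slope of each gene on Ttr was then fitted across the 12 libraries with the group means in the model, so that it reads the differences between libraries of the same group. A slope of 1 means that the gene changed by the same factor as Ttr. The libraries formed separate low and high clusters in Ttr, so a slope rests largely on the difference between those clusters. Depth also differed between the clusters, except for B6 KD 3. Slopes passed the test for 9 of 9 genes (edgeR quasi-likelihood test, Benjamini-Hochberg adjusted p under 0.05), against 337 of 15852 genes, or 2.13%, over all genes tested. All 337 were positive, and the median slope of all genes was -0.0017. The slopes were 0.91 ± 0.033 (SE) for Kcne2, 0.87 ± 0.020 for Clic6, 0.84 ± 0.015 for Folr1 and 0.81 ± 0.044 for Otx2. They were 0.70 ± 0.033 for Aqp1, 0.57 ± 0.014 for Enpp2, 0.56 ± 0.035 for Sostdc1, 0.54 ± 0.053 for Prlr and 0.51 ± 0.027 for Kl. The adjusted p ran from 4.07e-10 for Folr1 to 0.000298 for Prlr, and the median slope of the 9 genes stayed between 0.664 and 0.738 when each library was left out in turn. All slopes were below 1, although from the lowest to the highest library Otx2 spanned more (222-fold) than Ttr (170.1-fold).

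Smim11 and Rcan1, 2 tested genes that lie between Kcne2 and Clic6, had slopes of 0.017 ± 0.018 and 0.0098 ± 0.028 (adjusted p = 0.910 and 0.972). Their levels ran from 6.11 to 8.20 CPM for Smim11 and from 41.14 to 75.7 CPM for Rcan1. Both slopes were near 0, beside 0.91 and 0.87 for the genes on either side.

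**Figure D2:**
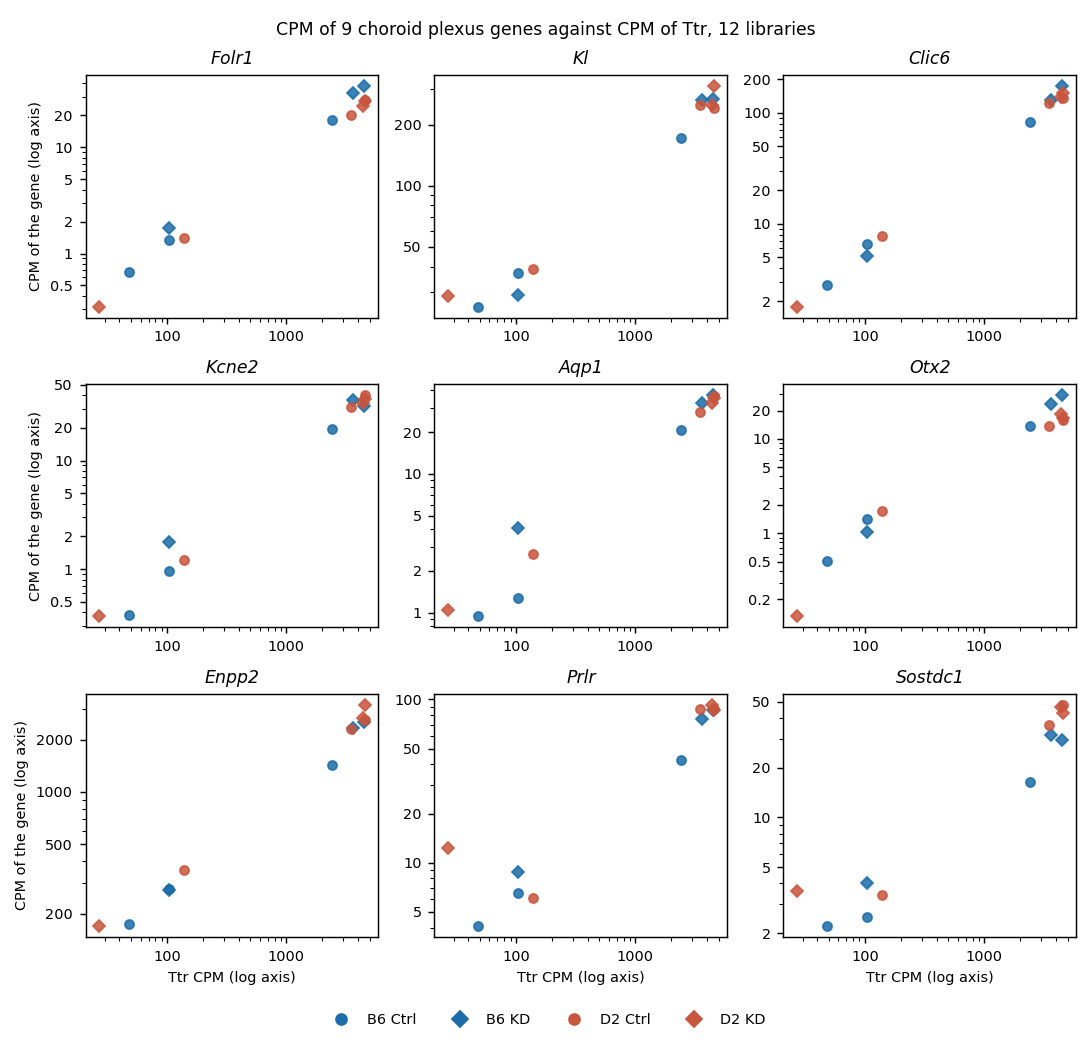
CPM of the 9 other genes against CPM of Ttr, both on log axes, with 1 point per library, colour for strain and shape for treatment. The points form a lower cluster of 5 libraries and an upper cluster of 7 in every panel, and the rise is steepest for Kcne2 (slope 0.91) and shallowest for Kl (0.51).

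Because the libraries formed separate clusters, no correlation over all 12 was computed. Within the 7 libraries high in Ttr, Pearson's r with Ttr on the log2(CPM + 1) scale was 0.969 for Aqp1, 0.947 for Enpp2, 0.926 for Clic6, 0.909 for Prlr, 0.894 for Kcne2, 0.866 for Sostdc1, 0.838 for Kl, 0.698 for Folr1 and 0.468 for Otx2. Exact two-sided permutation p-values were below 0.05 for 7 of 9 genes before adjustment, from 0.00159 for Aqp1 to 0.0496 for Kl, and were 0.0764 for Folr1 and 0.306 for Otx2. Adjusted over 15852 genes, none passed (adjusted p = 0.937 for each), and the smallest p of any gene was 0.000397. Of all genes 0 passed and 645 had an unadjusted p under 0.05. Spearman's rho ran from 0.321 for Prlr to 0.893 for Aqp1 (exact permutation p = 0.498 and 0.0123 before adjustment, 0.957 after). Without the 2 libraries farthest from the median of Ttr, the median r of the 9 genes fell from 0.894 to 0.504 (n = 5), and without B6 Ctrl 2 alone it was 0.455. For most of the genes the relation within the 7 libraries thus rested on B6 Ctrl 2, the lowest of them. Without it r was 0.860 for Aqp1 (exact permutation p = 0.0111), 0.743 for Enpp2 (exact permutation p = 0.0806) and 0.683 for Clic6 (exact permutation p = 0.118), each with an adjusted p of 1.0, and 0.473 or less for the other 6 genes. The 5 low libraries were too few for a correlation.

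Within the 5 low libraries the genes did not keep a single order. D2 KD 2 was lowest for Folr1, Clic6, Kcne2, Otx2 and Enpp2 but highest for Prlr, at 12.3 CPM against 4.10 to 8.82 CPM in the other 4. B6 KD 1 was highest of the 5 for Aqp1 (4.09 CPM), Kcne2 (1.76 CPM), Folr1 (1.73 CPM) and Sostdc1 (4.03 CPM), although its Ttr was below that of D2 Ctrl 1.

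Whether Hp1bp3 knockdown changed these genes was asked next. No gene of the 10 passed the test for KD against Ctrl averaged over strains (edgeR, 0 of 10, 0.0% of all 15853 genes tested), and none of the 10 had an unadjusted p under 0.05. Over all genes, edgeR called 0 with 3046 at an unadjusted p under 0.05, limma-voom called 0 and DESeq2 called 1241, none of them among the 10. The fitted log2 differences ran from 0.71 ± 0.75 (SE) for Kl to 0.99 ± 1.05 for Otx2, with a median of 0.88 against 0.0057 over all genes, and that of Ttr was 0.91 ± 1.28 (adjusted p = 0.729). The standard errors were about as large as the differences. Leaving out B6 Ctrl 2, the 1 B6 Ctrl library high in Ttr, raised the median from 0.88 to 2.21, and still none of the 10 passed.

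In B6, KD against Ctrl gave log2 differences of 1.27 ± 1.07 (Kl) to 1.86 ± 1.57 (Folr1), with a median of 1.70, and 0 of 10 passed (background 2.64%, 418 genes, with 1.76% higher and 0.877% lower in KD). Here 1 of 3 Ctrl and 2 of 3 KD libraries were high in Ttr, and the median was 4.31 without B6 Ctrl 2. In D2, where 2 of 3 libraries were high in each group, the differences ran from -0.01 ± 1.60 (Kcne2) to 0.19 ± 1.14 (Enpp2), and 0 of 10 passed (edgeR, background 0.0%, 452 genes at an unadjusted p under 0.05, with 1 gene called by DESeq2 and 0 by limma-voom). Their median of 0.11 became -0.32 without D2 KD 3, the library whose Hp1bp3 lay in the Ctrl range. For Ttr in D2 the difference was 0.13 ± 1.80 and turned negative when D2 Ctrl 1, D2 KD 1 or D2 KD 3 was left out and with limma-voom. The difference of the KD effect between the strains, D2 minus B6, was -1.78 ± 2.16 for Folr1 to -1.11 ± 1.5 for Kl, and 0 of 10 passed (edgeR, background 0.0%, 937 genes at an unadjusted p under 0.05, with 11 genes called by DESeq2 and 0 by limma-voom). Its median was -1.62, and -4.16 without B6 Ctrl 2.

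D2 against B6 averaged over treatments gave log2 differences between 0.21 ± 1.04 (Otx2) and 1.30 ± 0.82 (Sostdc1), all 10 in the direction of D2, and 0 of 10 passed, against a background of 21.3% of all genes, 8.64% higher and 12.7% lower in D2. In the same comparison 4 of 6 D2 libraries and 3 of 6 B6 libraries were high in Ttr. The median of the 10 genes was 0.79, and 1.96 without B6 Ctrl 2. Intervals this wide include both large differences and none in each of the 5 comparisons.

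A further fit, added after the division by Ttr had been seen, kept the log2 level of Ttr in the model, so that groups were compared at equal Ttr. The standard errors then fell from between 0.75 and 1.15 to between 0.069 and 0.26 for the KD effect averaged over strains. Still 0 of 9 genes passed for KD against Ctrl (edgeR, background 0.0%). An unadjusted p under 0.05 was found for 3002 of all 15853 genes and for 4 of the 9: Aqp1 (0.41 ± 0.16, adjusted p = 0.205), Enpp2 (0.19 ± 0.07, adjusted p = 0.191), Prlr (0.63 ± 0.26, adjusted p = 0.227) and Sostdc1 (0.41 ± 0.17, adjusted p = 0.229). Clic6 stood at 0.01 ± 0.09 and Otx2 at -0.06 ± 0.20. In B6 alone 2 of 9 had an unadjusted p under 0.05, Aqp1 (0.77 ± 0.23, adjusted p = 0.110) and Folr1 (0.33 ± 0.10, adjusted p = 0.113). The number of all genes called for KD in B6 was 418 without Ttr in the model and 0 with it (edgeR), whereas the number at an unadjusted p under 0.05 was 3262 without it and 2950 with it.

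Between the strains, 3 of 9 genes passed at equal Ttr, 2 higher and 1 lower in D2 (background 21.0%, with 8.52% higher and 12.5% lower). Folr1 was lower in D2 by a log2 difference of -0.43 ± 0.07 (adjusted p = 0.00104, edgeR), Sostdc1 was higher by 0.65 ± 0.17 (adjusted p = 0.0214) and Enpp2 was higher by 0.24 ± 0.07 (adjusted p = 0.029). Otx2 (-0.52 ± 0.20, adjusted p = 0.103) and Prlr (0.58 ± 0.26, adjusted p = 0.159) did not pass, and Aqp1, Clic6, Kcne2 and Kl lay between -0.07 and 0.17. With 21.0% of all genes past the same test, nothing is read from the count itself. Folr1 passed whichever of the 12 libraries was left out, with log2 differences of -0.45 to -0.40. Sostdc1 did not pass without B6 KD 3 (adjusted p = 0.0503), D2 KD 2 (0.117) or B6 Ctrl 2 (0.0691), and Enpp2 did not pass without B6 Ctrl 1, B6 Ctrl 2, B6 KD 1, D2 Ctrl 1, D2 Ctrl 2, D2 KD 2 or D2 KD 3 (adjusted p up to 0.110). Without D2 Ctrl 1, Otx2 (adjusted p = 0.00768) and Prlr (adjusted p = 0.0222) passed. Alignment used a separate genome for each strain, so strain and reference cannot be told apart.

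The levels can also be given as counts per 1000 Ttr counts. For Folr1, the 3 B6 libraries high in Ttr held 7.55 to 8.82 and the 4 D2 libraries high in Ttr 5.63 to 6.07. For Sostdc1 they held 6.54 to 8.63 in B6 and 9.44 to 10.6 in D2. For Otx2 they held 5.69 to 6.49 in B6 and 3.49 to 4.16 in D2, and for Aqp1 8.21 to 8.86 in B6 and 7.35 to 8.02 in D2. The strains did not overlap for these 4 genes. For Aqp1 the lower ratio in D2 had the opposite sign to the difference at equal Ttr, which was 0.05 ± 0.16 and did not pass. They overlapped for the other 5, among them Enpp2 at 562 to 643 in B6 and 569 to 697 in D2. The libraries low in Ttr had higher ratios for most genes, from 10.0 to 16.6 for Folr1 and from 24.0 to 133 for Sostdc1. Over all 12 libraries, 0 of 9 genes passed a test of the log2 ratio to Ttr between strains (exact permutation test within treatments, two-sided, smallest p = 0.35, for Otx2). This ratio added 1 CPM to both levels, which raised it for genes near or below 1 CPM in the low libraries, such as Folr1 at 0.316 CPM in D2 KD 2. Genes far above 1 CPM were affected by the division of the libraries as well. Enpp2 was at 562 to 697 in the libraries high in Ttr and at 2558 to 6323 in those low in Ttr. With low and high libraries in both strains, the test over all 12 libraries cannot decide whether the strains differ.

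**Figure D3:**
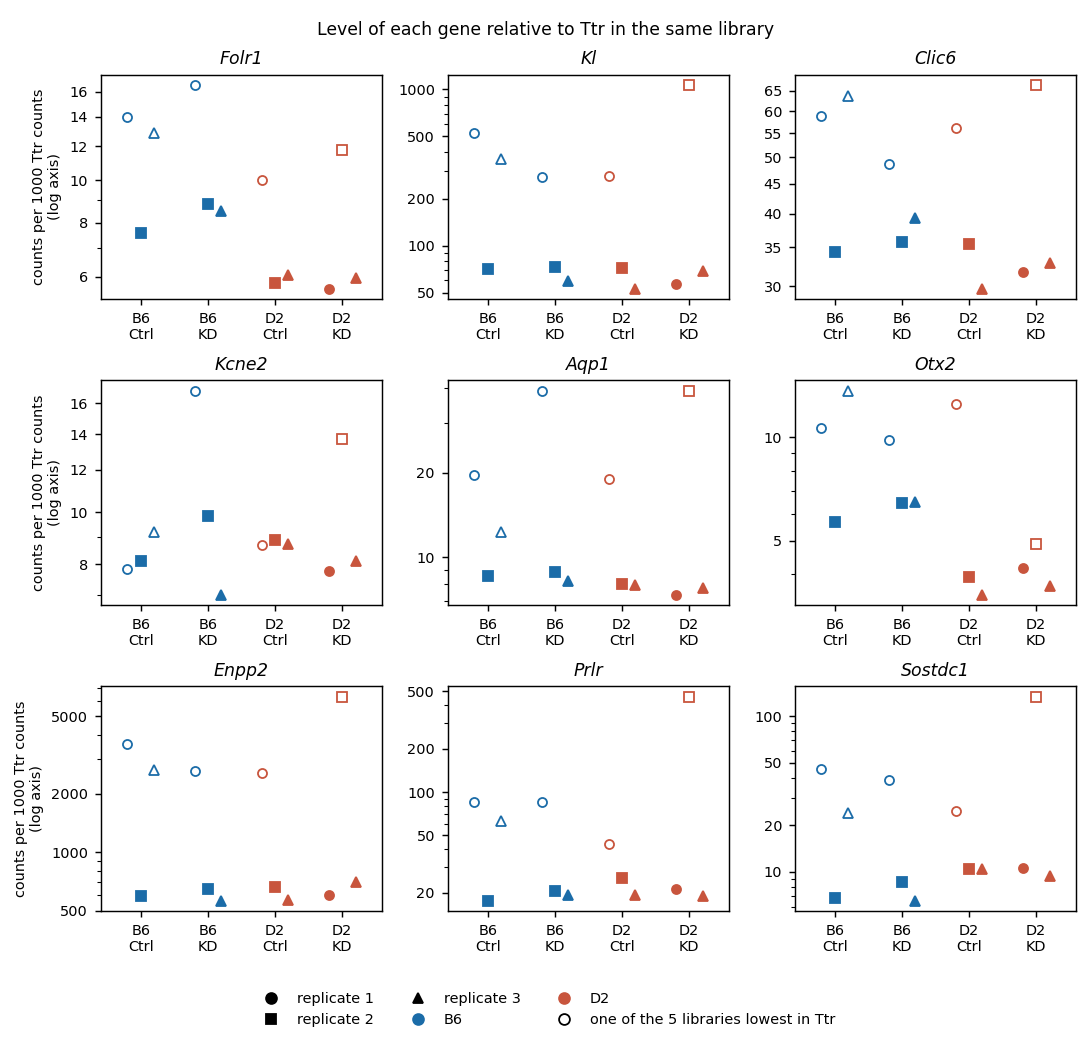
Counts of each of 9 genes per 1000 counts of Ttr in the same library (log axis), by group, with 1 point per library, colour for strain, shape for replicate, and open points for the 5 libraries lowest in Ttr. For Folr1 the filled B6 points (7.55 to 8.82) lie above the filled D2 points (5.63 to 6.07), and for Sostdc1 they lie below them.

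A list of 38 other choroid plexus epithelium genes, chosen with earlier results of these data known, gave a wider view. Their slopes on Ttr passed the test in 36 of 38, all positive, with a median of 0.46, against 2.13% of all genes tested. The same 5 lowest libraries were found in 35 of 38, against 2.08% of all genes tested. Rarres2 (0.03 ± 0.03) and Wfikkn2 (0.27 ± 0.07, adjusted p = 0.135) did not pass. Of the 12 most abundant, the steepest was Mfrp, a membrane protein of retinal pigment epithelium and choroid plexus, at 0.85 ± 0.030. It was followed by F5, coagulation factor V (0.68 ± 0.054), Ace, the angiotensin-converting enzyme (0.49 ± 0.040), Slc13a4, a sulfate carrier (0.44 ± 0.066), and Igf2, a growth factor (0.42 ± 0.046). Igfbp2, a binding protein of insulin-like growth factors (0.37 ± 0.040), Col9a3, a collagen chain (0.36 ± 0.031), Trpm3, a cation channel (0.31 ± 0.062), Sulf1, a heparan sulfatase (0.31 ± 0.031), Car12, a carbonic anhydrase (0.29 ± 0.045), Cab39l (0.22 ± 0.013) and Slc29a4, a monoamine transporter (0.17 ± 0.029), were shallower. Igf2, Car12, Slc29a4 and Cab39l were still at 34.6, 33.8, 29.4 and 26.4 CPM in their lowest libraries. In the 5 group comparisons 0 of 38 passed (edgeR). Over all genes, 21.3% passed for D2 against B6, 2.64% for KD in B6 and 0.0% in each of the other comparisons. The numbers of the 38 at an unadjusted p under 0.05 were 1 for KD averaged over strains, 2 for KD in B6 and 0 in each of the other 3.

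At equal Ttr, 6 of 38 other choroid plexus genes differed between strains (background 21.0%). Mfrp was lower in D2 by a log2 difference of -0.99 ± 0.14 (adjusted p = 0.000427, edgeR), and passed whichever of the 12 libraries was left out. In B6 mice Mfrp was at 1.62, 58.9 and 3.61 CPM under Ctrl and 4.26, 95.3 and 99.2 CPM under KD, and in D2 mice it was at 1.86, 39.2 and 49.9 CPM under Ctrl and 47.4, 1.05 and 46.5 CPM under KD. Every B6 library high in Ttr held more Mfrp than any D2 library. Rdh5, a retinol dehydrogenase, was lower in D2 by -0.51 ± 0.12 (adjusted p = 0.0121), and Cab39l by -0.25 ± 0.07 (adjusted p = 0.0253). Calml4 (0.46 ± 0.12, adjusted p = 0.0197), Lbp (0.50 ± 0.14, adjusted p = 0.0225) and Col8a2 (0.39 ± 0.11, adjusted p = 0.0313) were higher in D2. These genes beside Mfrp and Cab39l were named after their values had been seen. Leaving out 1 library gave 2 to 7 such genes, with 2 without D2 Ctrl 1 and 3 without B6 Ctrl 2.

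Markers of other cells that the dissected tissue could hold had smaller slopes on Ttr than the 9 genes. Their ranges were not all narrower. Among hippocampal neuron genes, Dsp spanned 19.8-fold, Prox1 16.1-fold and Zbtb20 15.5-fold between libraries, against 12.3-fold for Kl. Within D2 KD alone, Dsp spanned 17.1-fold and Prox1 5.06-fold. All 10 ependymal and cilia genes measured had positive slopes, from 0.12 to 0.23 with a median of 0.16. Of them 3 passed (background 2.13%), Foxj1 (0.16 ± 0.026), Rsph1 (0.20 ± 0.017) and Tekt1 (0.23 ± 0.025). The summed level of the list ran from 21.8 to 77.8 CPM. Of 10 leptomeningeal fibroblast genes, 0 passed (edgeR), although all slopes were positive, from 0.017 to 0.198 with a median of 0.14. Their summed level ran from 105 to 421 CPM, with Dcn at 38.03 to 132 CPM and Col1a2 at 11.7 to 88.1 CPM. Of 8 endothelial genes, among them Flt1 (45.6 to 102 CPM) and Slco1a4 (43.6 to 64.3 CPM), 0 passed, and the median slope was -0.0025. Of 10 myelinating oligodendrocyte genes, 0 passed, the median slope was -0.02, and Mbp ran from 1346 to 2581 CPM. Of 10 thalamus and habenula genes, 0 passed, the median slope was 0.0038, and the summed level ran from 83.2 to 155 CPM. Of 11 hippocampal neuron genes, 0 passed, with a median slope of 0.017. Their summed level ran from 785 to 1335 CPM. Neurod6, a transcription factor of forebrain excitatory neurons, was at 152 to 228 CPM in the 5 libraries low in Ttr and 123 to 217 CPM in the other 7. Zbtb20 divided the libraries by strain, at 289 to 436 CPM in B6 and 28.2 to 44.3 CPM in D2. None of the genes in these lists was at 0 in any library.

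**Figure D4:**
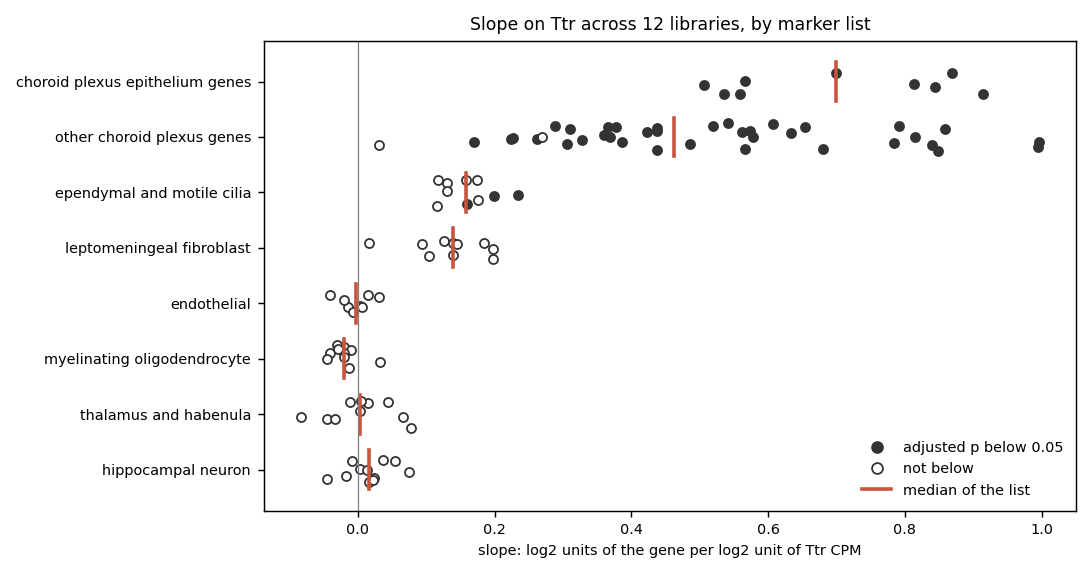
Slope of each gene on Ttr (log2 units per log2 unit of Ttr CPM) across the 12 libraries, with 1 point per gene, filled where the adjusted p was below 0.05, and a bar at the median of each list. The 9 choroid plexus genes lie between 0.51 and 0.91 and the lists of endothelial, oligodendrocyte, thalamic and hippocampal genes around 0. Ependymal genes lie between 0.12 and 0.23 and leptomeningeal genes between 0.017 and 0.198.

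How much of the difference between libraries came from epithelium carried along at dissection was not tested. The 5 low libraries came from all 4 groups and still held 26.9 to 139 CPM of Ttr.

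Genes with a pattern most like that of Ttr were ranked by the mean of Pearson's r within B6 and within D2 (6 libraries each) over 14160 genes with at least 1 CPM on average. The r spans both clusters of libraries, which also differ in depth except for B6 KD 3, and is given as a description. The 9 other choroid plexus epithelium genes ranked from 1 (Clic6, 0.999) to 87 (Prlr, 0.956), and the median over all ranked genes was -0.049. The first 100 held all 9 of them, 29 of the 38 other choroid plexus genes, 2 ependymal genes and none of the other lists. Outside the set, the 15 most alike were Slc4a5, a sodium bicarbonate cotransporter (0.996), Calml4, Ccdc135, Col8a2, Cldn2, a pore-forming claudin (0.994), Mfrp, Kcnj13, a potassium channel (0.993), Baiap2l1, Slc4a2, an anion exchanger (0.990), Epn3, Steap1, Sema3b, Slc16a8, a lactate carrier (0.986), Krt8 and 1110059M19Rik (0.985). Slc4a5 ran from 0.297 to 57.3 CPM with a slope of 0.99 ± 0.037, and Slc4a2 from 26.3 to 139 CPM with a slope of 0.33 ± 0.018. All 15 had the same 5 lowest libraries as Ttr. At the other end were Ambra1 (-0.926), Ap3m2 (-0.918), 4930432K21Rik (-0.916), Impdh1 (-0.915) and Best1 (-0.894), whose levels differed by 2.76-fold or less between libraries and whose slopes did not pass.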

How the data were processed

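Per the labels, mRNA libraries of whole hippocampus (3 mice per strain and treatment) were sequenced as paired reads. The authors aligned the reads of each strain to its own genome and estimated expression with RSEM 1.2.12 and Bowtie2 2.2.0 (versions from the submitters' processing notes, which also name GRCm38). They deposited RSEM expected counts per gene, not normalized. Because 2 pairs of libraries had shared a barcode in a first run, all were sequenced again, and reads of both runs were joined for 10 of 12 libraries (the sources used here do not say which). A table of normalized counts was not used here. Whether counting used strand was not given in the sources used here, so reads shared with overlapping genes (Folr1 with Anapc15, Clic6 with 2410124H12Rik, Otx2 with Otx2os1 and Gm49154, Enpp2 with Gm26684, Prlr with Gm21973) cannot be told apart.

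Here, expected counts were rounded, 27 symbols that had become dates were restored from gene identifiers, and genes were filtered with filterByExpr over the 4 groups. The depth was 18.2 to 39.4 M expected counts per library (M for 1000000). The main fit was the edgeR 4.0.16 quasi-likelihood test (R 4.3.3, TMM, robust) with a mean per group, and adjusted p-values (Benjamini-Hochberg) under 0.05 were called. The slope fit added log2 Ttr CPM. Single values were compared with exact permutation tests in Python 3.11.15, with a pseudocount of 1 CPM on the log2 scale. The fits were tested on simulated data. Alternatives were DESeq2 1.42.0 (only for the group comparisons without Ttr in the model), limma-voom (limma 3.58.1), RLE scaling and no filter. The newer quasi-likelihood method, other pseudocounts and leaving out each library were further alternatives. Coordinates are from GENCODE M21 on GRCm38 and sequences from RefSeq on GRCm38.p6.

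The genes, lists and tests were chosen with earlier results of these data known. Named were all 10 genes, the 12 most abundant other choroid plexus genes, the 15 most and 5 least like Ttr, and up to 2 genes of each other list. Dsp and Prox1 were added after their values had been seen. Replicates were numbered in order of deposit. Each library is 1 mouse per the methods of the study, and p-values measure the spread between these libraries.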

Additional observations from a re-analysis of the deposited data

How the results depend on the processing

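No paired analysis was possible because replicate numbers follow the order of deposit and pair nothing. The number of the 10 genes called in the 5 group comparisons was 0 under every setting, except D2 against B6 with Ttr in the model (3, added after seeing the data). All 9 slopes were called under every setting run for the slope. With 5 other genes as the index in place of Ttr, all 5 that remained were called. DESeq2 was not run for the slopes or for the comparisons at equal Ttr. At equal Ttr, the strain comparison called 1 to 4 of 9 genes when 1 library was left out (1 without D2 KD 2, 1 without B6 Ctrl 2), and 2 to 7 of the 38 other choroid plexus genes (3 with limma-voom). The median r within the high libraries was 0.504 without the 2 farthest libraries and ran from 0.455 to 0.943 with 1 library left out. Hp1bp3 stayed lower in KD, by -77.8 to -58.5 CPM.

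Signs turned only for values that had not passed. The KD difference of Ttr in D2 was -0.68 with limma-voom and ran from -0.43 to 0.73 with 1 library left out, and the median of the 10 genes ran from -0.44 to 0.67. At equal Ttr the strain difference ran from -0.12 to 0.16 for Kcne2 and from -0.018 to 0.31 for Aqp1. The difference in the ratio to Ttr ran from -1.003 to 0.054 for Kl, -0.60 to 0.10 for Kcne2, -0.85 to 0.10 for Aqp1, -0.72 to 0.17 for Enpp2, -0.77 to 0.39 for Prlr and -0.59 to 0.51 for Sostdc1, and was -0.16 for Sostdc1 at a pseudocount of 5. The cause of these changes was not tested. The number of all genes called for KD averaged over strains was 0 (edgeR), 15 (newer quasi-likelihood method) and 1241 (DESeq2), and for KD in B6 it was 418, 612 and 1688. With 1 library left out it ran from 0 to 799 averaged over strains, where D2 KD 3 gave the 799, and from 0 to 790 in B6. For KD in D2 DESeq2 called 1 and edgeR 0, and for the interaction 11 and 0. Depth was not the limit for Ttr, with at least 1021 counts per library, but D2 KD 2 held only 5 counts of Otx2, 12 of Folr1 and 14 of Kcne2.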

Other observations

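Tmem72, a membrane protein gene of the choroid plexus list, split the D2 libraries high in Ttr, and was named after its values had been seen. It stood at 46.1 CPM in D2 Ctrl 2 and 58.7 CPM in D2 KD 3, but at 14.5 CPM in D2 Ctrl 3 and 16.0 CPM in D2 KD 1, whereas Ttr ran only from 3479.8 to 4568 CPM in these 4 libraries. In B6 Ctrl 2, B6 KD 2 and B6 KD 3 it was at 10.5, 18.8 and 19.5 CPM. F5, Abca4 and Trpm3 were also highest in D2 Ctrl 2 and D2 KD 3 among these 4 D2 libraries, at 59.9 and 80.9 CPM against 38.6 and 40.4 CPM for F5, 27.1 and 40.2 CPM against 19.7 and 23.2 CPM for Abca4, and 121 and 152 CPM against 80.9 and 89.8 CPM for Trpm3. These are values of 4 libraries, and no test was made.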
